A study of Equus caballus with 15 samples.

Results

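Transcripts of 10 genes of the transforming growth factor-ß (TGF-ß) pathway were followed in equine macrophages. The genes were the ligand TGFB1, the receptors TGFBR1 and TGFBR2, the signalling proteins SMAD2, SMAD3 and SMAD4, the inhibitory proteins SMAD6 and SMAD7, and the nuclear repressors SKIL and TGIF1. They were picked by gene symbol with earlier results of these data known, and all 10 were found among the 16932 protein-coding genes measured. Blood mononuclear cells of 2 horses were differentiated with M-CSF at 30 ng/ml in medium with fetal bovine serum, which itself carries growth factors. Untreated macrophages received no IL-1ß, and all other cultures received IL-1ß at 10 ng/ml, either alone or together with an orthobiologic therapy (OT) that made up 25% of the medium for 24 h. The OTs were conditioned medium of bone marrow mesenchymal stromal cells (MSC-CM), platelet rich plasma that was lysed (PRP lysate) and serum conditioned by incubation (autologous conditioned serum, ACS), each prepared from 3 donor horses. Each of the 5 conditions had 3 libraries. OT libraries therefore replicate the product, whereas the untreated and IL-1ß libraries are technical replicates of the macrophages, so that p-values measure only the spread between these libraries. The sample descriptions have the cells collected after the 24 h treatment, whereas the methods of the study add a further culture period after washing.

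TGF-ß ligand is secreted in a latent complex, and once released it joins TGFBR2, the receptor that binds it first, to TGFBR1, the kinase that phosphorylates SMAD2 and SMAD3. These enter the nucleus with SMAD4, the partner shared with the bone morphogenetic protein (BMP) branch. The transcripts of SMAD7 and SKIL are well-known early targets of the pathway and encode its negative feedback, while SMAD6 is best known as a feedback inhibitor of BMP signalling. Platelets store TGF-ß and release it when they are lysed or when blood clots, so PRP lysate and serum carry the protein, and macrophages both make and sense it.

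Expression is given in CPM, the reads counted on a gene scaled to the same total in every library. The libraries held 28410733 to 47894074 reads counted on genes, so that a single read was worth 0.0209 to 0.0352 CPM, and the fewest reads on any of the 10 genes was 47, for SMAD3 in IL-1ß replicate 3. Macrophage markers were present (13 of 14 listed), with CD68 at 1340 to 2157 CPM, although CD14 and ITGAM lay at 1.38 to 4.32 and 1.10 to 3.47 CPM. T cell markers were present as well (8 of 8 listed), with CD3E at 140 to 520 CPM. Bulk RNA cannot tell apart a change in the share of a cell type and a change in RNA per cell.

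In some libraries expression deviated from the others with the length of the gene. Genes spanning over 50 kb deviated from the 15-library median by -0.90 on the log2 scale in IL-1ß replicate 3, by -0.44 in PRP lysate replicate 1 and by -0.17 in MSC-CM replicate 1. Genes spanning under 10 kb deviated by 0.20, 0.23 and 0.14 in these 3 libraries. Long genes also lay low in untreated replicate 1 (-0.19) and untreated replicate 3 (-0.14), where genes spanning under 10 kb deviated by 0.00 and 0.02. Many of the 10 genes are long, and 9 of 10 were lower in IL-1ß replicate 3 than in both other IL-1ß libraries, as were 59.4% of the 11628 genes tested. In PRP lysate replicate 1 and in MSC-CM replicate 1, 8 of 10 were lower than in both other libraries of their group, against 51.8% and 49.9% of genes tested. Results that rest on IL-1ß replicate 3 or PRP lysate replicate 1 are therefore also given without them.

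**Figure D1:**
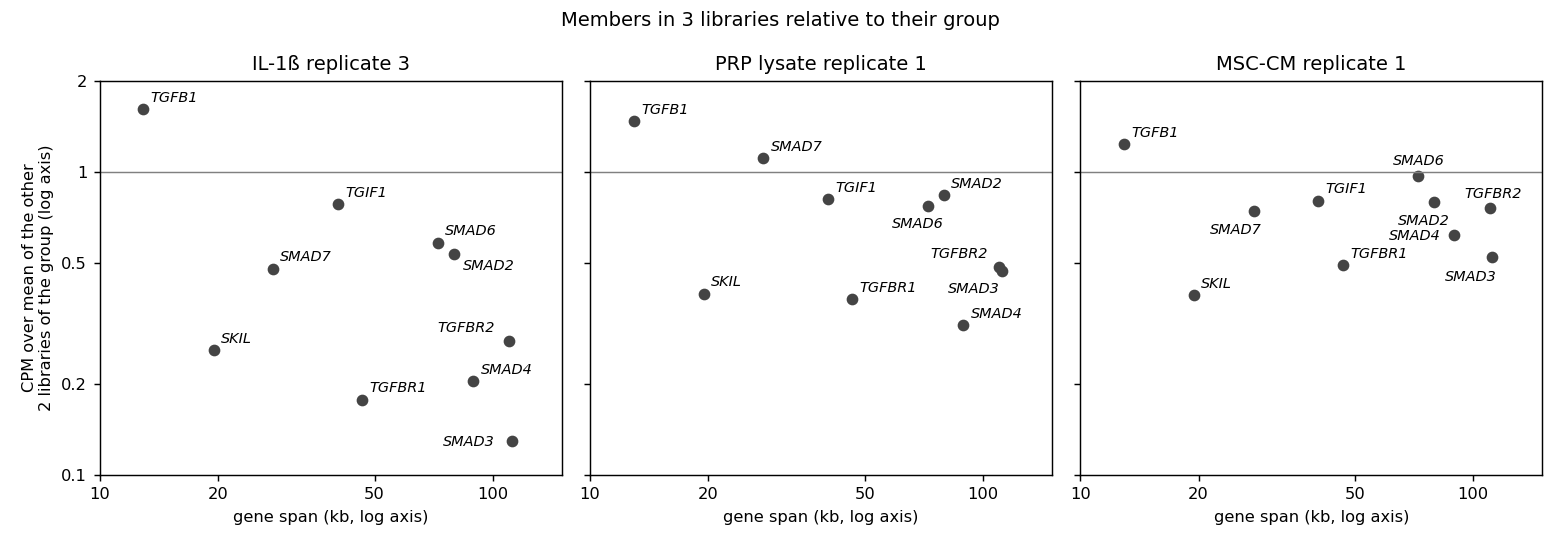
Each point is 1 of the 10 genes in IL-1ß replicate 3, PRP lysate replicate 1 or MSC-CM replicate 1, with the gene span in kb on the horizontal log axis and, on the vertical log axis, its CPM divided by the mean of the other 2 libraries of the group. TGFB1, the shortest gene, lay above 1 in all 3 panels, at 1.62, 1.47 and 1.24, whereas SMAD3 lay at 0.129, 0.470 and 0.524.

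The loss in IL-1ß replicate 3 was unequal among the 10 genes. Relative to the mean of the other IL-1ß libraries, the ratio was 0.129 for SMAD3 (112 kb) and 0.204 for SMAD4 (89.1 kb), but also 0.258 for SKIL, which spans only 19.5 kb. SMAD6 (72.4 kb) was at 0.585, SMAD7 (27.6 kb) at 0.480 and TGIF1 (40.3 kb) at 0.786. TGFB1 (12.9 kb) was the only one of the 10 above its companions, at 1.62.

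Differences between conditions were tested with limma on log2(CPM + 1) over the 11628 genes whose mean over the libraries reached 1 CPM, a filter that all 10 genes passed. A gene was called changed at a Benjamini-Hochberg adjusted p of at most 0.05 and a change of at least 2-fold. In 7 comparisons, 3 calls fell on 2 of the 10 genes. SMAD6 was higher with PRP lysate than with IL-1ß alone and than with MSC-CM, and SMAD7 was higher with ACS than with IL-1ß alone. The ligand, both receptors, SMAD2, SMAD3, SMAD4, SKIL and TGIF1 were not called in any comparison by limma, nor by edgeR or DESeq2 on recovered reads.

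**Figure D2:**
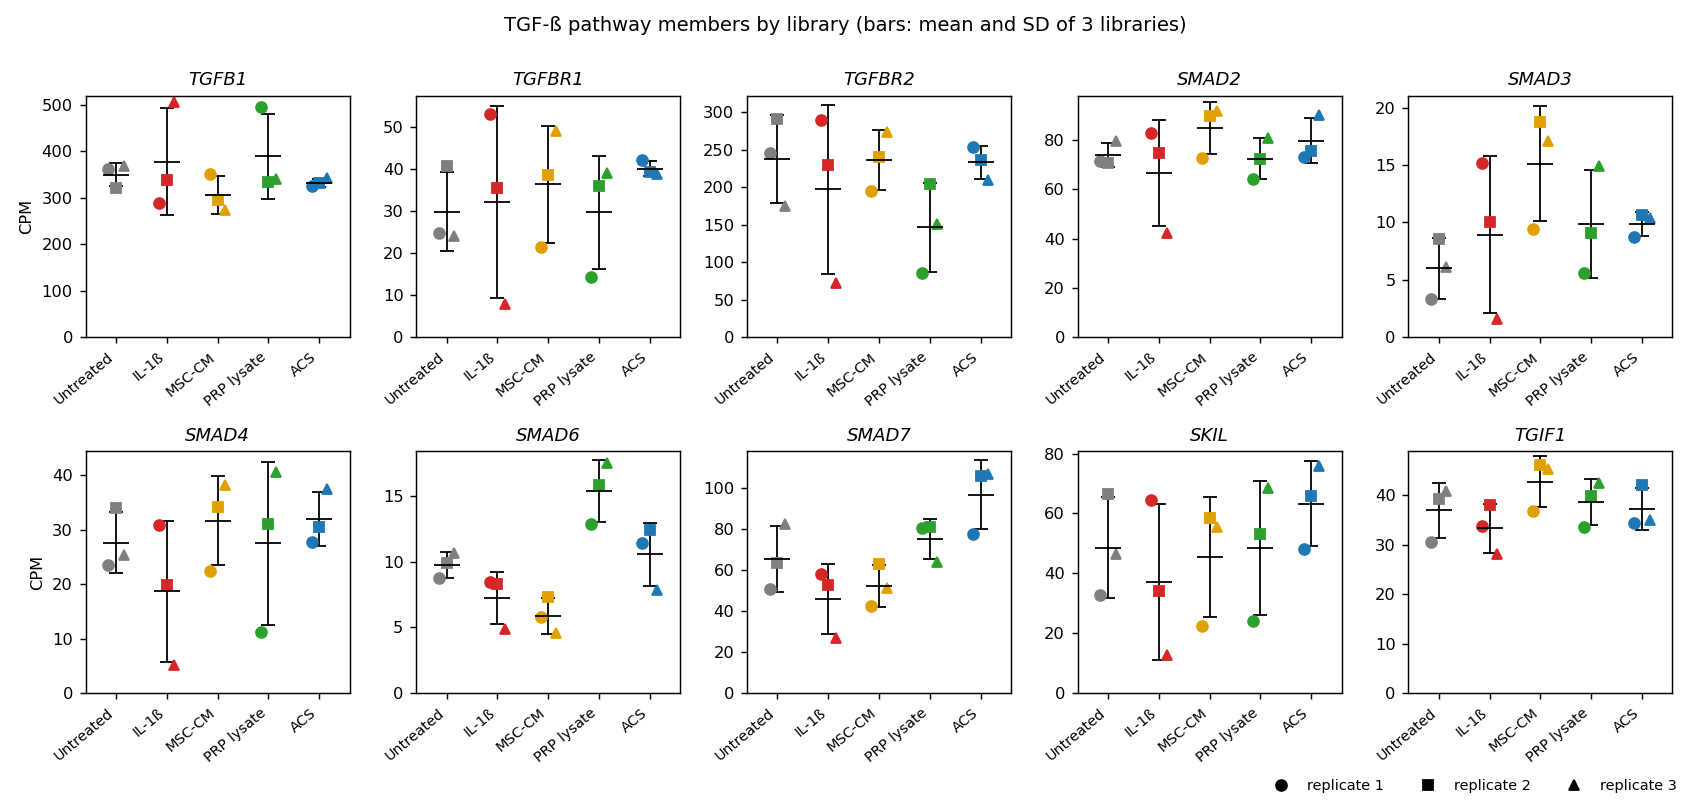
CPM of the 10 genes (vertical axis, from 0) in untreated, IL-1ß, MSC-CM, PRP lysate and ACS libraries, with 1 point per library and bars for the mean and SD of 3 libraries. SMAD6 was highest in the 3 PRP lysate libraries (12.8 to 17.5 CPM), and SMAD7 reached 106.9 CPM with ACS, while TGFB1 had its highest values in IL-1ß replicate 3 and PRP lysate replicate 1.

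SMAD6 (ENSECAG00000013706, chromosome 1, 127062756 to 127135204 in EquCab3.0) had the clearest pattern across conditions. It was at 12.8, 15.8 and 17.5 CPM with PRP lysate, 11.5, 12.4 and 7.87 CPM with ACS, and 5.75, 7.30 and 4.56 CPM with MSC-CM. In untreated macrophages it was at 8.73, 9.87 and 10.7 CPM, and with IL-1ß alone at 8.48, 8.31 and 4.91 CPM. All PRP lysate libraries lay above all other libraries, and the next highest was ACS replicate 2. MSC-CM and IL-1ß libraries overlapped, as did ACS and untreated libraries.

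With PRP lysate, SMAD6 averaged 15.4 ± 2.36 CPM (SD, n = 3) against 7.23 ± 2.01 CPM in the IL-1ß control, which gave a log2 fold change of 1.02 (SE 0.24, limma adjusted p = 0.0247). The 1 of 10 genes called here compares with 3.09% of all genes tested. The fold lay at the 2-fold limit, and the adjusted p was 0.0279 by edgeR and 0.0013 by DESeq2. Without IL-1ß replicate 3 the log2 fold change was 0.79 (limma adjusted p = 0.0579), and with PRP lysate replicate 1 left out as well it was 0.91 (adjusted p = 0.0234), under the 2-fold limit. The call was also lost without PRP lysate replicate 2 (0.99, adjusted p = 0.0827) or replicate 3 (0.92, adjusted p = 0.106), and in a fit of these 2 groups alone (adjusted p = 0.335).

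The fold of SMAD6 between PRP lysate and MSC-CM does not use the IL-1ß libraries, although they enter the pooled spread behind its SE, interval and p. The mean with MSC-CM was 5.87 ± 1.37 CPM (SD, n = 3), and the log2 fold change was 1.26 (SE 0.24, limma adjusted p = 0.00777), with a 95% interval of 0.75 to 1.77. It was 1.38 without PRP lysate replicate 1 (adjusted p = 0.00816), or 0.000774 with IL-1ß replicate 3 left out as well, and leaving out MSC-CM replicate 3 lost the call at 1.12 (adjusted p = 0.0545). SMAD6 was again the 1 of 10 genes called, against 2.61% of genes tested.

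Between the blood products, SMAD6 differed by 0.51 on the log2 scale (95% interval 0.00 to 1.02), with PRP lysate higher. The libraries of these groups did not overlap, but the limma adjusted p was 0.842. ACS and MSC-CM libraries did not overlap either (log2 fold change 0.75, 95% interval 0.24 to 1.26, limma adjusted p = 0.149). That change was 0.88 by edgeR (adjusted p = 0.106) and 0.91 by DESeq2 (0.00978). In a limma fit of the 2 groups, 2 of the 10 genes, SMAD6 and SMAD7, passed the adjusted p, as did 1536 of all 11628 genes tested. By DESeq2 and in that fit the SMAD6 change missed the call by its size alone. A higher level with PRP lysate than with IL-1ß that was called, and one with ACS (10.6 ± 2.40 CPM, log2 fold change 0.50, adjusted p = 0.248) that was not, are thus not shown to differ from each other.

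SMAD7 (ENSECAG00000020583, chromosome 8, 71006268 to 71033871), whose protein blocks TGFBR1 and recruits ubiquitin ligases to it, had its highest mean with ACS. It was at 77.3, 105.7 and 106.9 CPM with ACS, 80.6, 80.7 and 63.7 CPM with PRP lysate, and 42.5, 62.6 and 51.1 CPM with MSC-CM. Untreated libraries were at 50.6, 63.2 and 82.4 CPM, and IL-1ß libraries at 58.1, 52.7 and 26.6 CPM. Every ACS and every PRP lysate library lay above every IL-1ß and every MSC-CM library, whereas untreated libraries overlapped with all other groups.

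With ACS, SMAD7 averaged 96.6 ± 16.7 CPM against 45.8 ± 16.8 CPM in the IL-1ß control (SD, n = 3), which gave a log2 fold change of 1.12 (SE 0.28, limma adjusted p = 0.0419). It was the 1 of 10 genes called with ACS, against 2.21% of genes tested. This call depended on single libraries and settings. Without IL-1ß replicate 3 the log2 fold change was 0.78 (adjusted p = 0.0996), and without ACS replicates 1, 2 or 3 or IL-1ß replicate 2 it was 1.27, 1.05, 1.04 and 1.26, with limma adjusted p-values of 0.0646, 0.175, 0.171 and 0.0648. edgeR and DESeq2 gave adjusted p-values of 0.0445 and 0.0037 but changes of 0.995 and 0.986, just under 2-fold. The limma adjusted p was 0.0593 without a filter on low values and 0.265 in a fit of the 2 groups alone.

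The other SMAD7 differences were not called. They were 0.77 on the log2 scale for PRP lysate against IL-1ß (95% interval 0.17 to 1.36, limma adjusted p = 0.151), 0.88 for ACS against MSC-CM (0.29 to 1.48, adjusted p = 0.146, or 0.95 and 0.00809 by DESeq2, under the 2-fold limit) and 0.53 for PRP lysate against MSC-CM (-0.07 to 1.12, adjusted p = 0.444). PRP lysate and ACS differed by -0.36 (-0.95 to 0.24, adjusted p = 0.842), with overlapping libraries. The first of these was 0.42 (limma adjusted p = 0.342) without IL-1ß replicate 3 and 0.37 with PRP lysate replicate 1 left out as well.

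TGFB1 (ENSECAG00000011671, chromosome 10, 12022628 to 12035542), the ligand, was transcribed in every condition and varied little. It was at 362, 321 and 368 CPM in untreated libraries, 289, 339 and 507 CPM with IL-1ß, and 352, 295 and 274 CPM with MSC-CM. With PRP lysate it was at 496, 334 and 340 CPM and with ACS at 325, 332 and 342 CPM. The highest values came from IL-1ß replicate 3 and PRP lysate replicate 1, and all other libraries lay between 274 and 368 CPM. Every pair of neighbours in the order of means, which ran from PRP lysate through IL-1ß, untreated and ACS to MSC-CM, overlapped.

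In the limma fit with all libraries the largest difference in TGFB1 was 0.33 on the log2 scale, for PRP lysate against MSC-CM (95% interval -0.10 to 0.76, adjusted p = 0.552), which was 0.14 without PRP lysate replicate 1. For MSC-CM against IL-1ß it was -0.27 by limma, -0.47 by edgeR and -0.52 by DESeq2, not called by any of them, and -0.03 by limma without IL-1ß replicate 3. PRP lysate and IL-1ß differed by 0.06 (-0.37 to 0.49), a sign that turned with trimmed mean of M-values (TMM) or relative log expression (RLE) scaling, at -0.02 and -0.04. The libraries with the highest TGFB1 also had the highest summed CPM of the 8 T cell markers, at 1707 and 1752 against 669 to 1343 elsewhere. Over all 15 libraries the Spearman correlation of TGFB1 with this sum was 0.29, and the part of T cells in the TGFB1 values was not tested.

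The receptors were more variable than the ligand. TGFBR1 (ENSECAG00000004757, chromosome 25, 5874791 to 5921328) ranged from 7.85 CPM in IL-1ß replicate 3 to 53.0 CPM in IL-1ß replicate 1, so that a single condition covered the whole range of the series. TGFBR2 (ENSECAG00000015269, chromosome 16, 54855977 to 54966050) ranged from 72.2 CPM in IL-1ß replicate 3 to 292 CPM in untreated replicate 2. Without IL-1ß replicate 3 and PRP lysate replicate 1, TGFBR1 ranged 2.47-fold, TGFBR2 1.94-fold and TGFB1 1.35-fold.

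TGFBR2 had its lowest mean with PRP lysate, at 147 ± 59.3 CPM, and the other means were 197 ± 112 CPM with IL-1ß, 233 ± 22.4 CPM with ACS, 236 ± 39.5 CPM with MSC-CM and 238 ± 58.5 CPM in untreated cells (SD, n = 3). The PRP lysate libraries, at 86.1, 204 and 151 CPM, lay below all ACS libraries, at 254, 237 and 209 CPM. The difference was -0.74 on the log2 scale (95% interval -1.67 to 0.19) and was not called (limma adjusted p = 0.842), and it was -0.40 without PRP lysate replicate 1. TGFBR1 means lay between 29.7 ± 13.5 CPM with PRP lysate and 40.01 ± 1.81 CPM with ACS, and all neighbouring conditions overlapped.

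SMAD2 (ENSECAG00000015132, chromosome 8, 70035472 to 70115024) and SMAD3 (ENSECAG00000020259, chromosome 1, 126616963 to 126728582), the receptor-activated SMADs, differed in how much they varied. SMAD2 lay between 70.7 and 91.6 CPM in 13 libraries, and at 42.3 CPM in IL-1ß replicate 3 and 64.2 CPM in PRP lysate replicate 1. SMAD3 was at 3.32, 8.58 and 6.13 CPM in untreated libraries, 15.1, 10.0 and 1.63 CPM with IL-1ß, and 9.40, 18.8 and 17.1 CPM with MSC-CM. Its coefficient of variation over 15 libraries was 48.9%, larger than that of 91.6% of genes tested, and that of SMAD2 was 16.1%, larger than that of 20.3%.

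All MSC-CM libraries lay above all untreated libraries in SMAD3, a pair of groups that is not among the 7 comparisons. Against IL-1ß, SMAD3 with MSC-CM had a log2 fold change of 1.00 (95% interval -0.21 to 2.21, limma adjusted p = 0.705), which was 0.22 without IL-1ß replicate 3. For IL-1ß against untreated cells it was 0.22 with all libraries and 1.00 (adjusted p = 0.313) without that library. With PRP lysate SMAD3 was at 5.64, 9.11 and 14.9 CPM and with ACS at 8.70, 10.6 and 10.4 CPM, and these groups overlapped.

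SMAD4 (ENSECAG00000017857, chromosome 8, 72737931 to 72827075), the common partner, was at 30.9, 19.9 and 5.19 CPM with IL-1ß and at 23.5, 34.0 and 25.4 CPM in untreated libraries. The means of the other groups were 31.6 ± 8.20 CPM with MSC-CM, 27.5 ± 14.98 CPM with PRP lysate and 31.9 ± 4.96 CPM with ACS (SD, n = 3). The groups overlapped throughout. The log2 fold changes against IL-1ß were 0.99 for MSC-CM, 0.66 for PRP lysate and 1.03 for ACS, none of them called (limma adjusted p = 0.705, 0.579 and 0.27), and without IL-1ß replicate 3 they were 0.30, -0.03 and 0.34.

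The nuclear repressors differed in how much they varied. SKIL (ENSECAG00000010663, chromosome 19, 13091388 to 13110887), also called SnoN, binds SMADs and holds their targets silent until TGF-ß leads to its degradation. Its values spread from 12.7 to 64.5 CPM within the IL-1ß libraries, from 22.4 to 58.7 CPM with MSC-CM and from 24.1 to 68.4 CPM with PRP lysate. The mean was highest with ACS, at 63.3 ± 14.1 CPM (SD, n = 3), and the log2 fold change of ACS against IL-1ß was 1.00 (95% interval -0.18 to 2.18, limma adjusted p = 0.283), or 0.40 without IL-1ß replicate 3.

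TGIF1 (ENSECAG00000011078, chromosome 8, 46736922 to 46777263), a homeodomain repressor that competes with coactivators at SMAD2 and SMAD3, had the narrowest range of the 10 genes over all libraries. It ranged from 28.1 to 46.1 CPM, 1.64-fold, over the 15 libraries, with a coefficient of variation of 13.8%. Without IL-1ß replicate 3 and PRP lysate replicate 1 it ranged 1.51-fold, against 1.30-fold for SMAD2 and 1.35-fold for TGFB1. Its largest log2 fold change was 0.35 for MSC-CM against IL-1ß (95% interval -0.01 to 0.72, limma adjusted p = 0.705).

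**Figure D3:**
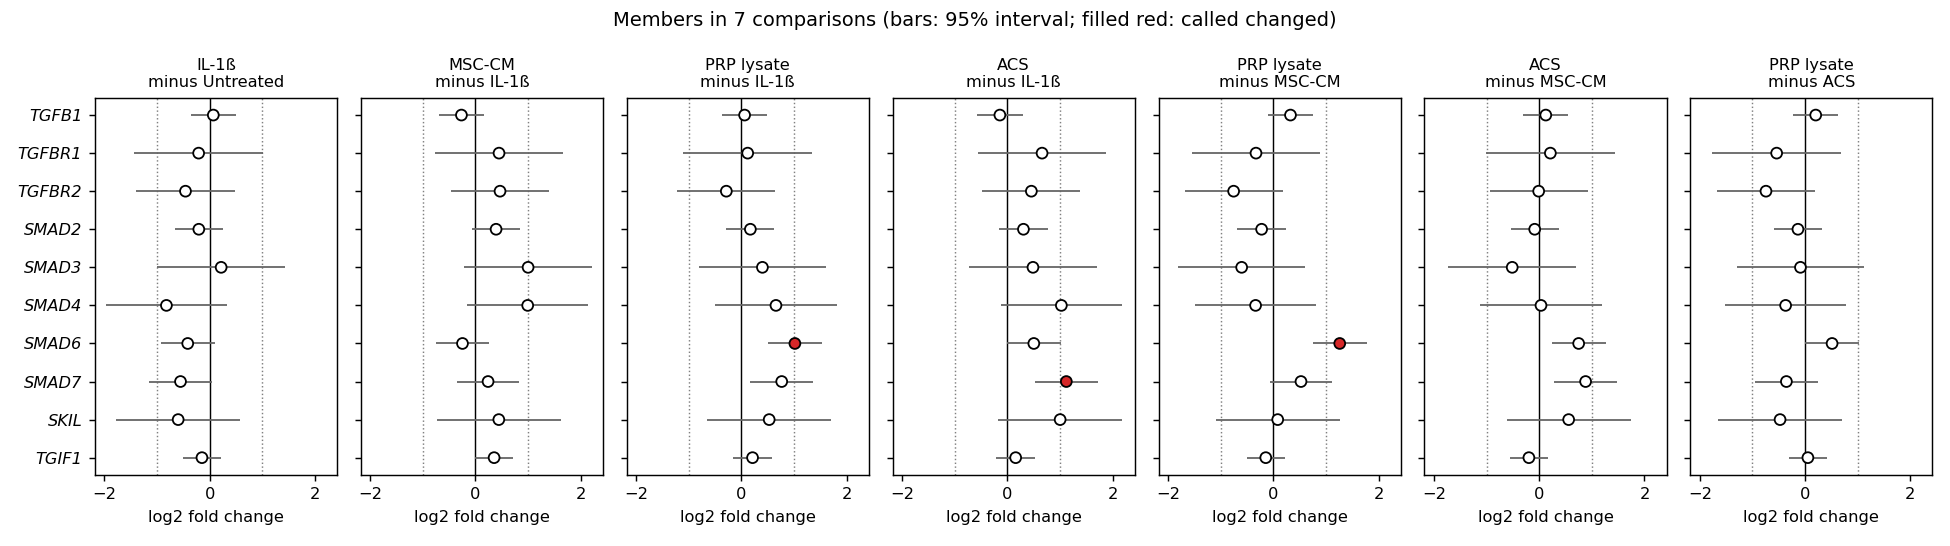
Log2 fold changes of the 10 genes (horizontal axis) in each of the 7 comparisons, as points with 95% intervals, filled red where called, with dotted lines at 2-fold. The intervals of TGFB1, SMAD2 and TGIF1 are narrow and all include 0, those of TGFBR1, SMAD3, SMAD4 and SKIL span over 2 log2 units, and the red points are SMAD6 with PRP lysate against IL-1ß (1.02) and MSC-CM (1.26) and SMAD7 with ACS against IL-1ß (1.12).

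By comparison, IL-1ß alone against untreated cells gave 0 calls among the 10 genes by limma, edgeR and DESeq2, and 0 at an unadjusted limma p under 0.05. Over all genes, 0.292% were called by limma, 0.197% by edgeR and 1.12% by DESeq2, and 13.0% had such an unadjusted p. The largest change was that of SMAD4 (-0.82, 95% interval -1.97 to 0.33), which was -0.13 without IL-1ß replicate 3. SMAD7 was lower by 0.55 on the log2 scale (log2 fold change -0.55, -1.15 to 0.04) and SMAD6 by 0.41 (-0.41, -0.93 to 0.10). The SMAD6 libraries of IL-1ß and untreated cells did not overlap, although the change shrank to -0.19 without IL-1ß replicate 3, and that of SMAD7 to -0.21.

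MSC-CM against IL-1ß likewise gave 0 calls among the 10 genes with each of the 3 tools, and 0 at an unadjusted p under 0.05. Over all genes tested 0% were called by limma, 0% by edgeR and 0.0118% by DESeq2, with 5.60% at an unadjusted limma p under 0.05. ACS against MSC-CM gave 0 calls among the 10 genes with each tool and 2 at an unadjusted limma p under 0.05, SMAD6 and SMAD7. The share of all genes called was 1.23% by limma, 0.921% by edgeR and 2.14% by DESeq2, and 13.5% had an unadjusted p under 0.05. PRP lysate against ACS gave 0 calls with each tool and 1 at an unadjusted p under 0.05, SMAD6, against 0.0946% of genes called by limma, 0.0804% by edgeR and 0.381% by DESeq2 and 5.19% at an unadjusted p under 0.05.

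The comparisons with IL-1ß share their control libraries and are not independent. In these, the log2 fold changes of all genes tested had a median of 0.16 for MSC-CM, 0.11 for PRP lysate and 0.13 for ACS, and those of the 10 genes had one of 0.42, 0.31 and 0.50. Without IL-1ß replicate 3 the medians of the 10 genes were -0.07, -0.05 and 0.07, beside 0.05, -0.02 and 0.01 for all genes. RLE scaling brought the medians of all genes to 0.00, 0.02 and 0.01 and those of the 10 genes to 0.24, 0.23 and 0.39. In the comparisons that do not use the IL-1ß libraries, the median of the 10 genes was -0.18 for PRP lysate against MSC-CM, 0.08 for ACS against MSC-CM and -0.25 for PRP lysate against ACS, beside -0.09, -0.04 and -0.04 for all genes. Without PRP lysate replicate 1 those with PRP lysate were 0.13 against MSC-CM and -0.01 against ACS. Without MSC-CM replicate 1 the medians of the 10 genes against MSC-CM were -0.34 with PRP lysate and -0.13 with ACS, beside -0.12 and -0.08 for all genes.

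Across the 15 libraries, TGFB1 ran opposite to its receptors, with Spearman correlations of -0.89 with TGFBR1 and -0.82 with TGFBR2. SMAD2 and SMAD3 had a correlation of 0.85, SMAD4 and SKIL of 0.87, and the inhibitory SMAD6 and SMAD7 of 0.63. These values describe libraries that share the deviation with gene span, whose part in the correlations was not tested. Among all genes tested, those closest to SMAD6 by this measure were CCNH (0.93), NID2 (0.92) and STAC2 (0.92), and those closest to SMAD7 were BHLHE40 (0.98), ZSWIM4 (0.98) and NR4A3 (0.97).

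Several of the 10 genes are neighbours. SMAD3 and SMAD6 lie 334 kb apart on chromosome 1 with 0 listed genes between them, and their correlation across libraries was -0.18. On chromosome 8, SMAD2 and SMAD7 lie 891 kb apart with 2 listed genes between them, and SMAD7 and SMAD4 lie 1704 kb apart with 11. Only SMAD6 and SMAD7 among these neighbours were called in any comparison.

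The wider pathway was described with 6 lists, which hold the 10 genes, of 113 genes in all, of which 105 were listed in the data and 88 passed the filter. The lists were written with earlier results of these data known, so a higher share of calls than over all genes is not a test of the pathway. Besides SMAD6 and SMAD7, 10 of the 78 other genes tested were called in at least 1 comparison, as were 4.54% of all genes tested. They numbered 6 of 78 for PRP lysate against IL-1ß, 6 for ACS against IL-1ß, 6 for PRP lysate against MSC-CM, 4 for ACS against MSC-CM, 1 for PRP lysate against ACS, 1 for IL-1ß against untreated cells and 0 for MSC-CM against IL-1ß. In the same order these were 7.69%, 7.69%, 7.69%, 5.13%, 1.28%, 1.28% and 0% of the 78 genes, beside 3.09%, 2.21%, 2.61%, 1.23%, 0.0946%, 0.292% and 0% of all genes tested. Of 17 tested ubiquitin ligases, phosphatases and trafficking proteins that regulate the pathway, the main limma fit called 0 in any comparison. At most 2 had an unadjusted p under 0.05 in a comparison, beside 603 to 2387 of all 11628 genes tested. With IL-1ß replicate 3 and PRP lysate replicate 1 left out limma also called 0. Up to 6 then had such a p, with PRP lysate against IL-1ß, beside 2619 of all genes tested. Without IL-1ß replicate 1 up to 8 of the 17 had one, where up to 5004 of all genes did. The endocytic adaptor DAB2 was called lower with PRP lysate than with IL-1ß by edgeR and DESeq2 (log2 fold change -1.25 and -1.27, adjusted p = 0.0457 and 0.00379). It was also called by limma with TMM or RLE scaling (-1.36 and -1.38, adjusted p = 0.0247 and 0.0233), with the gene span trend removed (-1.42, 0.00591), and without PRP lysate replicate 2 (0.0384) or IL-1ß replicate 3 (0.0366). For MSC-CM against IL-1ß, edgeR and DESeq2 also called 0 of the wider pathway genes. Of the 78, 3 had an unadjusted limma p under 0.05, beside 5.60% of all genes tested.

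**Figure D4:**
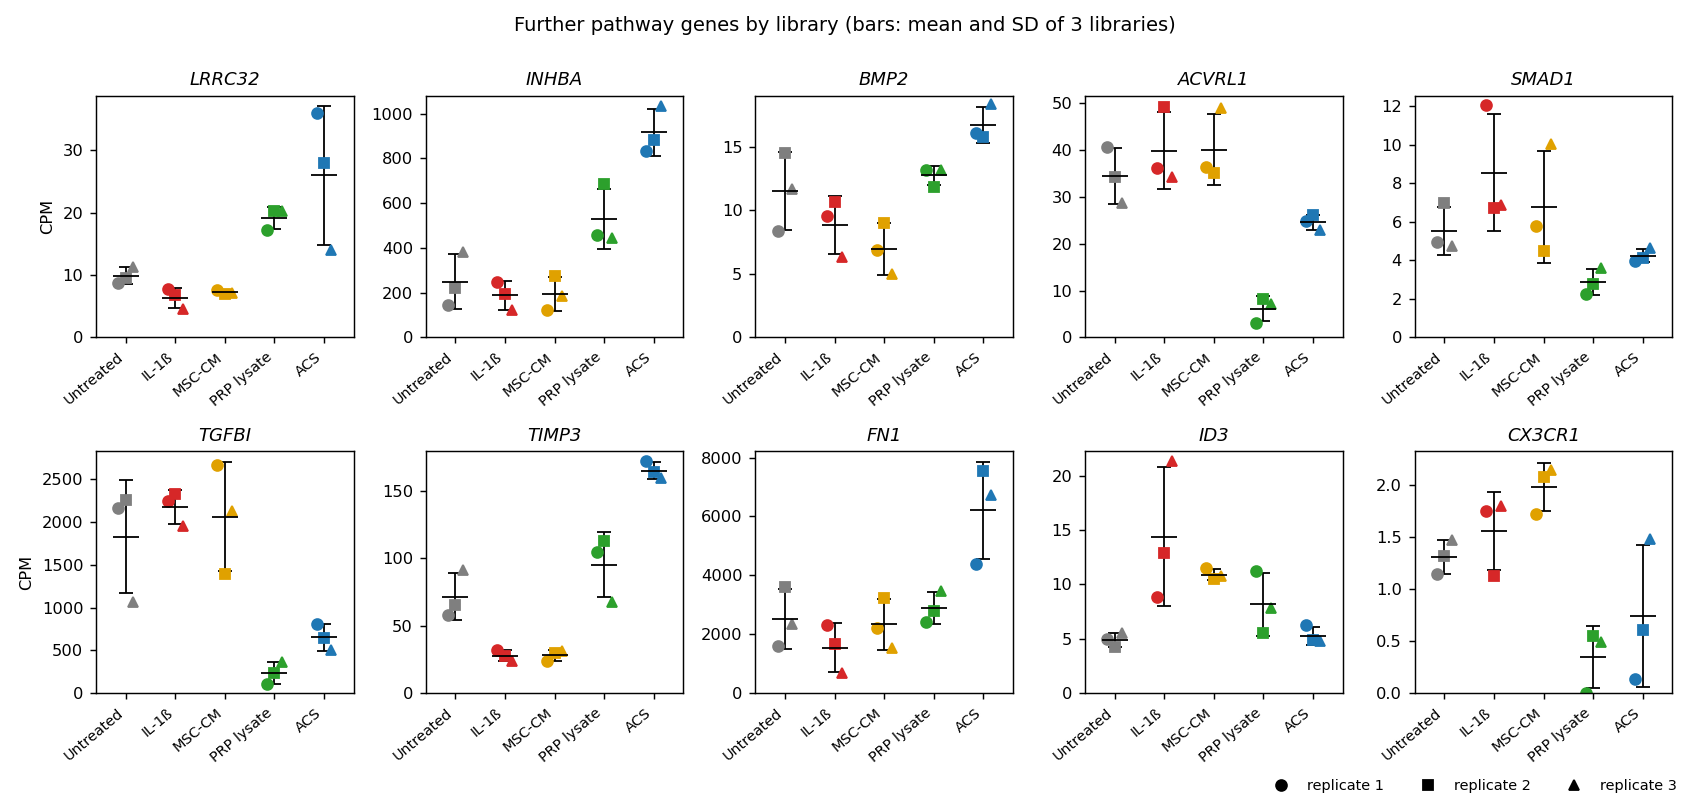
CPM (vertical axes, from 0) of the 10 further pathway genes called in at least 1 comparison, with 1 point per library and bars for the mean and SD of 3 libraries. TIMP3, INHBA and LRRC32 were higher with both blood products than with IL-1ß or MSC-CM, while TGFBI and ACVRL1 were lowest with PRP lysate.

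The lists are described by their calls and medians. The 4.54% of all genes called in any comparison and the medians over all genes serve as the background. With IL-1ß replicate 3 and PRP lysate replicate 1 left out, the median of all genes was 0.02 with PRP lysate and 0.01 with ACS against IL-1ß. It was -0.04 with PRP lysate against MSC-CM. In that fit 513, 306 and 562 of all 11628 genes tested were called, in the same order, against 359, 257 and 304 with all libraries. Each list's median and changed calls are given with these exclusions too. ACS against MSC-CM uses neither library. For the 17 regulators described above, the median was 0.04 with PRP lysate and 0.18 with ACS against IL-1ß, and -0.17 and 0.02 against MSC-CM. With the exclusions it was -0.10 and -0.04 against IL-1ß and -0.07 for PRP lysate against MSC-CM. Of the ligand and latency list, 1 of 14 tested genes was called, and the median log2 fold change was 0.35 with PRP lysate and 0.41 with ACS against IL-1ß, and 0.27 and 0.35 against MSC-CM. With the exclusions it was 0.12 and 0.24 against IL-1ß and 0.14 for PRP lysate against MSC-CM. LRRC32 was then joined by the gelatinase MMP2, called lower with PRP lysate against IL-1ß (-1.21, limma adjusted p = 0.0196) and MSC-CM (-1.01, 0.0206), by the gelatinase MMP9, higher with PRP lysate against MSC-CM (1.02, 0.000458), and by the integrin subunit ITGB8, higher with ACS against IL-1ß (1.49, 0.0382). LRRC32 (GARP), which holds latent TGF-ß on the cell surface, was at 17.2, 20.2 and 20.2 CPM with PRP lysate and 36.03, 27.9 and 14.1 CPM with ACS. IL-1ß libraries were at 7.76, 6.75 and 4.53 CPM and MSC-CM libraries at 7.61, 6.97 and 7.09 CPM, so that both blood products lay above both other groups. The log2 fold changes were 1.48 and 1.81 against IL-1ß (limma adjusted p = 0.00715 and 0.00434) and 1.29 and 1.62 against MSC-CM (0.0185 and 0.00953). The calls against IL-1ß held when any 1 library was left out but were lost in fits of the 2 groups alone (adjusted p = 0.105 and 0.137). Those against MSC-CM were lost for PRP lysate in 5 of 6 such fits, all but the one without PRP lysate replicate 1 (adjusted p = 0.0574 to 0.0813), and for ACS without ACS replicate 2 (0.0697) or MSC-CM replicate 3 (0.0555).

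Of the receptor list, 1 of 13 tested genes was called by the main limma fit. The median log2 fold change was 0.12 with PRP lysate and 0.46 with ACS against IL-1ß, and -0.33 and 0.04 against MSC-CM. The signs turned with the exclusions, to -0.21 and -0.05 against IL-1ß and 0.12 for PRP lysate against MSC-CM, while ACVRL1 stayed the 1 gene called. ACVRL1 (ALK1), a receptor for BMP9 and BMP10 that can also be engaged by TGF-ß, was at 3.09, 8.27 and 7.07 CPM with PRP lysate. It was at 24.7, 26.0 and 22.9 CPM with ACS, 36.1, 49.2 and 34.2 CPM with IL-1ß, and 36.2, 35.0 and 48.8 CPM with MSC-CM. PRP lysate libraries lay apart from all others, and the ACS libraries lay below the IL-1ß and MSC-CM libraries. With PRP lysate ACVRL1 fell against IL-1ß (log2 fold change -2.58, limma adjusted p = 0.000151), against MSC-CM (-2.59, adjusted p = 0.000228) and against ACS (-1.92, adjusted p = 0.0133). The last of these was lost without ACS replicate 1 (adjusted p = 0.0797) or replicate 2 (0.107), and in fits of the 2 groups alone the first and the last were lost (0.0519 and 0.231).

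Of the SMADs and nuclear partners, 3 of 13 tested genes were called in some comparison, SMAD6, SMAD7 and SMAD1. SMAD1, the BMP counterpart of SMAD2 and SMAD3, was at 2.23, 2.80 and 3.59 CPM with PRP lysate against 12.04, 6.72 and 6.85 CPM with IL-1ß (log2 fold change -1.27, limma adjusted p = 0.0179). The call was lost without IL-1ß replicate 1 (-1.02, adjusted p = 0.0538) or PRP lysate replicate 2 (-1.26, adjusted p = 0.0584), and also with a replicate block (adjusted p = 0.111) and in a fit of the 2 groups alone (0.235). Relative to every IL-1ß library, SMAD1 was lower and SMAD6, the inhibitor of its branch, higher in each of the 3 PRP lysate libraries. The lower SMAD1 was not particular to PRP lysate. With ACS it was at 3.98, 4.14 and 4.61 CPM, also below every IL-1ß library, and was called lower by DESeq2 (-1.12, adjusted p = 0.0149) but not by limma. The median log2 fold change of the list against IL-1ß was 0.44 with PRP lysate and 0.51 with ACS, and against MSC-CM it was -0.22 and 0.14. With the exclusions it was 0.20 and 0.23 against IL-1ß, and the sign for PRP lysate against MSC-CM turned to 0.19. SMAD1 against IL-1ß and SMAD6 against MSC-CM, both with PRP lysate, were then the calls left.

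Of the activin and BMP list, 2 of 8 tested genes were called, and the median log2 fold change was 0.14 with PRP lysate and 0.43 with ACS against IL-1ß, and 0.21 and 0.24 against MSC-CM. With the exclusions it was 0.21 and 0.07 against IL-1ß and 0.34 for PRP lysate against MSC-CM, and the call of INHBA with PRP lysate against IL-1ß was lost. INHBA, the subunit of activin A, which signals through SMAD2 and SMAD3, was at 834, 880 and 1034 CPM with ACS and 456, 685 and 446 CPM with PRP lysate. IL-1ß libraries were at 248, 192 and 123 CPM and MSC-CM libraries at 122, 274 and 184 CPM. The ACS libraries lay above all PRP lysate libraries, which lay above all IL-1ß and MSC-CM libraries. With ACS, INHBA rose by 2.33 on the log2 scale against IL-1ß (limma adjusted p = 0.00481) and by 2.31 against MSC-CM (adjusted p = 0.00621), and both calls held when any 1 library was left out.

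With PRP lysate, INHBA rose by 1.52 against IL-1ß and by 1.49 against MSC-CM on the log2 scale (limma adjusted p = 0.0298 and 0.0365). The first was lost without IL-1ß replicates 2 or 3 or PRP lysate replicates 2 or 3 (adjusted p = 0.0648 to 0.125), and the second without MSC-CM replicates 1 or 3 or PRP lysate replicates 2 or 3 (adjusted p = 0.073 to 0.151). Both were lost with the replicate number as a block (limma adjusted p = 0.112 and 0.139) and in fits of the 2 groups alone (0.132 and 0.072). With IL-1ß replicate 3 and PRP lysate replicate 1 left out, the first was lost at 1.34 (adjusted p = 0.0534) and the second was 1.59 (0.0101). The second was also lost without a filter on low values (0.0611). BMP2, a BMP ligand, was at 16.0, 15.8 and 18.3 CPM with ACS against 6.91, 9.0 and 4.96 CPM with MSC-CM (log2 fold change 1.18, adjusted p = 0.0238). That call was lost in 5 of 6 fits with 1 library left out, all but the one without MSC-CM replicate 2 (adjusted p = 0.0794 to 0.144).

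Among 31 tested response genes, which include SMAD6, SMAD7, SKIL, TGIF1 and TGFBR1, 2 rose and 1 fell with PRP lysate against IL-1ß, 3 rose and 2 fell with ACS against IL-1ß, 2 rose and 2 fell with PRP lysate against MSC-CM, and 1 rose with ACS against MSC-CM. Over all genes tested, 3.09%, 2.21%, 2.61% and 1.23% were called in these comparisons. The median log2 fold change of the list was 0.40 and 0.61 with PRP lysate and ACS against IL-1ß, and 0.08 and 0.23 against MSC-CM. With the exclusions it was 0.26 and 0.25 against IL-1ß and 0.21 for PRP lysate against MSC-CM. In that fit 1 rose and 2 fell with PRP lysate against IL-1ß, 2 rose and 2 fell with ACS against IL-1ß, and 3 rose and 2 fell with PRP lysate against MSC-CM. Calls over all 11628 genes rose in that fit too, from 359 to 513, from 257 to 306 and from 304 to 562 in these comparisons. For IL-1ß alone against untreated cells they rose from 34 to 91. VEGFA, an angiogenic factor, was called in that fit but not by limma with all libraries, higher with IL-1ß than in untreated cells (1.58, limma adjusted p = 0.00393) and lower with PRP lysate (-1.33, 0.0037) and ACS (-1.03, 0.0153) than with IL-1ß and with PRP lysate than with MSC-CM (-1.16, 0.0034), and CCN2 was called higher with PRP lysate than with MSC-CM (1.13, 0.0161). MMP2, MMP9, ITGB8, VEGFA and CCN2 are named here after their values were seen. TIMP3, an inhibitor of metalloproteinases, was at 172, 164 and 159 CPM with ACS and 105, 113 and 67.6 CPM with PRP lysate, against 31.6, 27.8 and 23.5 CPM with IL-1ß. MSC-CM libraries were at 23.4, 29.8 and 31.0 CPM, and untreated libraries at 57.5, 65.6 and 91.1 CPM, above all IL-1ß and MSC-CM libraries. It rose with ACS by 2.54 and with PRP lysate by 1.72 on the log2 scale against IL-1ß (limma adjusted p = 7.7e-05 and 0.000445), and by 2.52 and 1.70 against MSC-CM (0.000293 and 0.000621). These 4 calls held when any 1 library was left out, and that of PRP lysate against IL-1ß was lost in a fit of the 2 groups alone (adjusted p = 0.0625).

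TIMP3 was also the 1 pathway gene called with IL-1ß alone, where it fell from 71.4 ± 17.5 to 27.7 ± 4.04 CPM (SD, n = 3; log2 fold change -1.32, limma adjusted p = 0.0341). This call held without IL-1ß replicate 3 and was lost without any 1 of the other 5 libraries (adjusted p = 0.0531 to 0.153), with a replicate block (0.263) and in a fit of the 2 groups alone (0.472).

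TGFBI, a matrix protein named for its induction by TGF-ß, ran the other way with the blood products. It was at 108, 236 and 361 CPM with PRP lysate and 804, 647 and 498 CPM with ACS, against 2246, 2327 and 1952 CPM with IL-1ß and 2663, 1395 and 2125 CPM with MSC-CM. The PRP lysate, ACS and IL-1ß libraries did not overlap. With PRP lysate it fell against IL-1ß (log2 fold change -3.36, limma adjusted p = 0.000326) and MSC-CM (-3.24, adjusted p = 0.000568), and both calls held when any 1 library was left out. With ACS it fell against IL-1ß (-1.76, adjusted p = 0.0301), a call lost in 5 of 6 such fits, all but the one without IL-1ß replicate 1 (adjusted p = 0.053 to 0.138), and without a filter on low values (0.0502).

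FN1, which encodes fibronectin, was at 4370, 7534 and 6722 CPM with ACS against 2308, 1649 and 681 CPM with IL-1ß (log2 fold change 2.14, limma adjusted p = 0.0162), a call lost without ACS replicate 2 (adjusted p = 0.09) or replicate 3 (0.075) and in a fit of the 2 groups alone (0.143). ID3, a target of BMP signalling, was at 6.22, 4.87 and 4.74 CPM with ACS against 8.81, 12.9 and 21.4 CPM with IL-1ß (-1.22, adjusted p = 0.0338). Without IL-1ß replicate 3 the ID3 change was -0.90 (adjusted p = 0.0875), and the call was also lost without IL-1ß replicate 2 or any ACS library (adjusted p = 0.0661 to 0.138), without a filter on low values (0.053) and in a fit of the 2 groups alone (0.241). CX3CR1, a chemokine receptor, was called with PRP lysate against MSC-CM, at 0, 0.55 and 0.493 CPM against 1.72, 2.08 and 2.15 CPM (-1.17, adjusted p = 0.0235), a call lost without PRP lysate replicate 1 (-0.97, adjusted p = 0.0609) or any 1 MSC-CM library (adjusted p = 0.0603 to 0.11) and in a fit of the 2 groups alone (0.0716). The size of the CX3CR1 change depended on the scale at this low level, at -2.47 by edgeR (adjusted p = 0.211, not called), -2.47 by DESeq2 (0.0398) and -2.62 by limma with a pseudocount of 0.1 (0.0654, not called).

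Markers of other cells in the cultures or products are given beside these results. Of 12 platelet and megakaryocyte markers 9 were listed, and their summed level ranged from 190 to 308 CPM in untreated, 60.0 to 205 in IL-1ß, 132 to 180 in MSC-CM, 135 to 397 in PRP lysate and 230 to 339 CPM in ACS libraries. ITGB3 (21.3 to 351 CPM), an integrin that macrophages also express, made up over 50% of the sum in 14 of 15 libraries and 35.5% in IL-1ß replicate 3, while GP9, GP1BA and TUBB1 reached at most 0.257, 0.294 and 0.793 CPM. Of 9 stromal markers 8 were listed, at 32.8 to 74.4 CPM in sum, with COL1A1 at 0 to 1.61 and DCN at 0 to 0.281 CPM. T cell markers summed to 669 to 957 CPM in untreated, 907 to 1707 in IL-1ß, 1265 to 1343 in MSC-CM, 875 to 1752 in PRP lysate and 795 to 998 CPM in ACS libraries. Macrophage markers summed to 4882 to 6928 CPM in untreated, 4252 to 6966 in IL-1ß, 4784 to 5807 in MSC-CM, 2568 to 4606 in PRP lysate and 4115 to 5470 CPM in ACS libraries. Of 6 B cell markers 5 were listed, at 12.2 to 48.2 CPM in sum, and of 6 natural killer cell markers 5, at 210 to 1065 CPM with the highest sum in PRP lysate replicate 1.

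The neutrophil and endothelial lists separated both blood products from the other groups. Of 6 neutrophil markers 4 were listed, with sums of 324 to 389 CPM in untreated, 309 to 391 in IL-1ß, 268 to 430 in MSC-CM, 486 to 546 in PRP lysate and 530 to 759 CPM in ACS libraries. Nearly all of it was CSF3R (268 to 759 CPM), the receptor for G-CSF, while MPO, ELANE and LTF reached at most 3.81, 0.383 and 0.726 CPM. All 6 endothelial markers were listed, with sums of 185 to 321 CPM in untreated, 253 to 518 in IL-1ß, 192 to 407 in MSC-CM, 63.1 to 104 in PRP lysate and 119 to 153 CPM in ACS libraries. PECAM1, an adhesion molecule that leukocytes also carry, made up most of it (48.3 to 500 CPM), while VWF and EMCN reached at most 0.226 and 0.537 CPM. SMAD7, LRRC32, ACVRL1, INHBA, BMP2, TIMP3 and TGFBI likewise separated the blood products from IL-1ß and MSC-CM. The share of all genes that did so was not counted. The part of T cells, macrophages, neutrophils and endothelial cells in the SMAD6, SMAD7 and wider pathway results was not tested.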

How the data were processed

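The deposited values are CPM of 16932 genes, which the authors made in Partek from trimmed reads with STAR 2.7.3 as the aligner, EquCab3.0 as the genome and HTSeq as the counter (per the labels' processing notes and the study's methods). Strand use in counting is not given in the sources used here. All 15 columns were matched by header. Reads recovered from the smallest CPM step (99.6% of values whole within 0.1 read) served edgeR 4.0.16 and DESeq2 1.42.0 as alternatives.

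The main test was limma 3.58.1 (R 4.3.3) with an intensity trend on log2(CPM + 1), a scale that understates changes of low genes, with 5 groups in 1 model and no replicate block. Genes averaging 1 CPM or more were tested and p-values adjusted by Benjamini-Hochberg within each comparison. The 10 genes, the 6 lists and the marker lists were chosen with earlier results of these data known. Further pathway genes were named if called with groups that did not overlap. A fit with the trend over gene span removed and the joint exclusion of IL-1ß replicate 3 and PRP lysate replicate 1 were added after seeing the data. Steps were tested on simulated data. ACS replicates were numbered in order of listing. Same-numbered libraries of the other groups were checked for pairing by the correlation of their deviations from the group means. Of 18 pairs 11 were over 0.1 (range -0.77 to 0.63), and only between MSC-CM and PRP lysate were all 3 (0.63, 0.26 and 0.42). The products share donor horses per the study, but a match of horses by replicate number is drawn from these data and not from the labels. The value of 1 marker gene is not reported here.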

Additional observations from a re-analysis of the deposited data

How the results depend on the processing

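The count of called members with PRP lysate against IL-1ß fell from 1 to 0 under TMM factors, RLE size factors, a fit of only the 2 groups, the gene span trend removed, and the joint exclusion of IL-1ß replicate 3 and PRP lysate replicate 1, and ranged from 0 to 1 with 1 library left out. The log2 fold change of SMAD6 there was 0.95, 0.93, 1.02, 0.86 and 0.91. With ACS against IL-1ß the count fell from 1 to 0 under these 5 settings and under edgeR, DESeq2 and no filter on low values, and ranged from 0 to 1 with 1 library left out. SMAD7 was then at 0.78 to 1.12 on the log2 scale. With PRP lysate against MSC-CM the count was 1 in every alternative except without MSC-CM replicate 3, a range of 0 to 1. In the other 4 comparisons it was 0 in all alternatives run. Of the 70 pairs of gene and comparison, the 3 called and 4 more at an unadjusted p under 0.05 kept their sign in every alternative run. Of the other 63, 33 changed sign under some alternative, 18 of them without IL-1ß replicate 3, and 0 of the 63 were called under any alternative. DESeq2 and the fit without a filter tested 95 other pathway genes, edgeR 88 and all other fits 78. The count of these called was 1 with IL-1ß alone against 4 by DESeq2, 2 without IL-1ß replicate 3 and PRP lysate replicate 1, and 0 in a fit of the 2 groups. For PRP lysate against IL-1ß it was 6, against 11 by DESeq2, 10 with the span trend removed, 4 with a replicate block and 1 in the fit of the 2 groups. For ACS against IL-1ß it was 6, against 9 by DESeq2, 8 with the span trend removed, 4 without a filter and 3 in the fit of the 2 groups. For PRP lysate against MSC-CM it was 6, against 9 by DESeq2, 9 with the joint exclusion, 7 with the span trend removed, 5 with a replicate block and 4 in the fit of the 2 groups. For ACS against MSC-CM it was 4, against 7 by DESeq2 and 7 in the fit of the 2 groups, and for PRP lysate against ACS 1, against 2 by DESeq2 and 0 in the fit of the 2 groups. With the span trend removed, IL-1ß alone gave 2, and with a replicate block 0. With 1 library left out these counts ranged, in the same order, from 0 to 2, 5 to 8, 3 to 9, 3 to 6, 2 to 4 and 0 to 1. Calls over all genes moved as well, so these shifts say little about the pathway genes. In the same order they numbered 34, 359, 257, 304, 143 and 11, against 167, 684, 574, 484, 292 and 57 by DESeq2 and 0, 56, 48, 167, 323 and 0 in the fit of the 2 groups. With the span trend removed they numbered 39, 427, 296, 338, 185 and 21, with the joint exclusion 91 for IL-1ß alone and 562 for PRP lysate against MSC-CM, for ACS against IL-1ß 207 without a filter, and with a replicate block 6, 197 and 171 in the comparisons of IL-1ß alone, PRP lysate against IL-1ß and PRP lysate against MSC-CM.

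Replicate numbers are shared by untreated, IL-1ß, MSC-CM and PRP lysate libraries, and the labels do not say that a number marks a shared donor. With a replicate block, ACS left out, the count with PRP lysate against IL-1ß was 0 (SMAD6 adjusted p = 0.0906), and it stayed at 1 for PRP lysate against MSC-CM and 0 elsewhere. For PRP lysate against MSC-CM, the pair of groups whose numbers deviated together, the block ended the call of INHBA and of no other gene named. With 3 libraries a group, and values within IL-1ß as far apart as 1.63 and 15.1 CPM for SMAD3 and 7.85 and 53.0 CPM for TGFBR1, a 2-fold change of TGFBR1, SMAD3, SMAD4 or SKIL in at least 1 direction lay within the 95% interval of every comparison.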
